A study of Homo sapiens with 3 samples.

Results

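The genes that carry out apoptosis were examined in 22RV1 cells, a SPINK1-positive human prostate cancer line, after silencing of SPINK1, which encodes a secreted trypsin inhibitor. The set held 34 genes, taken by name: the pro-survival and pro-death members of the BCL2 family, caspases, the proteins that caspases meet when mitochondria are permeabilized, the inhibitor of apoptosis proteins (IAPs) and the death receptors with their adaptors. Their gene names matched 59 of the 58201 gene probes on the array, and 43 probes of 32 genes were kept among 21439 kept probes of 17057 gene names. Kept probes were those well above background on all 3 arrays in at least 1 of the dye channels. Both CASP8 probes and all 3 probes of TNFSF10, the ligand TRAIL, were not well above background in either channel on any array, so no ratio is given for these genes.

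Stable 22RV1-shSPINK1 cells carried 1 of 3 lentiviral pGIPZ hairpins (shSPINK1-1, shSPINK1-2 and shSPINK1-3), and the control cells, 22RV1-shSCRM, carried a scrambled hairpin. Both were kept under puromycin in RPMI-1640, and no further treatment or time point is named. Each hairpin was measured on 1 two-color Agilent array, with shSPINK1 RNA labelled with Cy5 and shSCRM RNA labelled with Cy3 on every array. Dyes were not swapped, so a dye effect of a probe and an effect of the hairpins cannot be told apart, and the control stands on 1 side of every ratio, so no error given here includes how control cultures vary. All 3 arrays were assumed to lie on 1 slide, which the sample labels do not state. The 3 arrays, 1 per hairpin, are the replicates.

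Apoptosis runs through a mitochondrial and a receptor route. In the mitochondrial route, BH3-only proteins bind the pro-survival members of the BCL2 family or activate the effectors BAX and BAK1, whose pores in the outer membrane release cytochrome c (CYCS) and DIABLO; cytochrome c then assembles APAF1 and CASP9 into the apoptosome. In the receptor route, FAS and the TRAIL receptors recruit FADD and an initiator caspase, and CFLAR competes for that place. IAPs hold caspases or their upstream complexes in check, and many carcinoma lines keep both routes under the control of pro-survival proteins such as BCL-XL (BCL2L1) and MCL1.

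The probes of the genes called lower below are shown first, because each value was read from 1 short stretch of a transcript. The second BAX probe, which was not called, is set beside the first, which was. Every probe has 60 bases, and its first 30 bases are given 5′ to 3′ in the sense of the transcript.
MCL1: tatcgttcttgatcataagccgcttattta
BCL2A1: aggaaagatctgtgaaatgctcttctgtcc
BCL2L1: gaacctcttccccagaaaggagactagatt
BAX, first probe: tgccttggactgtgtttttcctccataaat
BAX, second probe: ctgcctctggaattgctcaagttcattgat
BAD: ttcccttccggtgcgtgtgaagccacggaa
BIK: ttttcgttttttctaaaagatgaattccta
FADD: tctctaaatcttccttgtgaggattatggg
BIRC2: gataccattttggttaaaggaaatgctgcg
In the hg19 coordinates of the array's annotation, the whole MCL1 probe lies at chr1:150547622-150547681 on the minus strand (NM_021960), the BCL2L1 probe at chr20:30253324-30253383 on the minus strand (NM_138578), the BAD probe at chr11:64037483-64037542 on the minus strand (NM_004322) and the BIK probe at chr22:43525495-43525554 on the plus strand (NM_001197). The FADD probe lies at chr11:70053305-70053364 (NM_003824) and the BIRC2 probe at chr11:102248391-102248450 (NM_001166), both on the plus strand. The first BAX probe lies at chr19:49464904-49464963 and the second at chr19:49464454-49464513, both on the plus strand, and of the at most 4 transcripts listed for a probe none is listed for both. For the BCL2A1 probe the annotation gives chr15:80253220-80253252 on the minus strand (NM_004049), a span of 33 of its 60 bases. The annotation names a transcript and a position but not an exon or an untranslated region.

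SPINK1 was checked first. The log2 ratios of hairpins 1, 2 and 3 were -3.71, -3.65 and -3.89 (mean -3.75 ± 0.12, SD, n = 3 arrays), so every array carried the loss of the target that its label states. All 7 listed prostate and epithelial genes had a kept probe, namely HOXB13, FOLH1, TMPRSS2, KRT8, KRT18, EPCAM and CDH1. Their 11 kept probes had a median log2 ratio of -0.23. At an adjusted p under 0.05 by limma, 5 were lower (45.5%, against 8.3% of all kept probes) and 1 was higher (9.09%, against 4.59%). The higher probe was of KRT18 (mean 0.35), whose other probe had a mean of 0.23. The median lay in the same direction as that of the apoptosis genes described below. The part of this shift in the values of the apoptosis genes was not tested. Of 4 listed genes of other cell types on the array, PECAM1 and COL3A1 had no kept probe, while COL1A1 and PTPRC each had 1. On the arrays of hairpins 1, 2 and 3, 46.8%, 41.3% and 41.3% of gene spots were well above background in Cy5, and no gene spot was saturated.

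Apoptosis genes shifted little and mostly downward. Of the 43 kept member probes, 8 were lower in shSPINK1 cells at an adjusted p under 0.05 (18.6%), against 8.3% of all kept probes, and 1 was higher (2.33%), against 4.59% of all kept probes. The test was limma's moderated test of the mean log2 ratio against 0 with Benjamini-Hochberg adjustment over all 21439 kept probes. The 8 lower probes were those of MCL1, BAX, BIK, BAD, FADD, BCL2A1, BCL2L1 and BIRC2, 1 for each gene, and the higher probe was that of TNFRSF10B. With loess exchanged for centring on the median of all gene spots, the split was 31 lower (72.1%, against 57.9% of all kept probes) and 0 higher (against 0.494%). With centring on the median of the kept probes it was 19 lower (44.2%, against 23% of all kept probes) and 4 higher (9.3%, against 17.9%).

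The changes were small on the scale used here, which draws ratios of dim probes toward 0. A mean beyond 0.5 on the log2 scale was reached by 1 lower member probe, that of MCL1 (2.33%, against 0.345% of all kept probes), and by 0 higher member probes, against 0.313% of all kept probes; the highest member mean was 0.27, so none passed this limit at an unadjusted p by limma either. The log2 ratio lay below 0 on all 3 arrays for 22 member probes of 21 genes (51.2%), against 28.1% of all kept probes, and above 0 on all 3 arrays for 5 (11.6%), against 21.3% of all kept probes. The median over the member probes was -0.06, between a lowest mean of -0.51 and a highest of 0.27, and the median over all kept probes was -0.01. Array by array the member median was -0.07, -0.10 and -0.11 for hairpins 1, 2 and 3. Unadjusted p by limma was under 0.05 for 21 of the 43. No share over all kept probes is given for unadjusted p, here or below, so such counts are not a result about the members. By the log ratios of Feature Extraction, the scanner software, the means of MCL1, APAF1 and BCL2L1 were -0.60, -0.55 and -0.52. On that scale 1 BCL2L11 probe and BIRC3 had means of 0.54 and 0.51, and 0 member probes were called by limma.

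**Figure D1:**
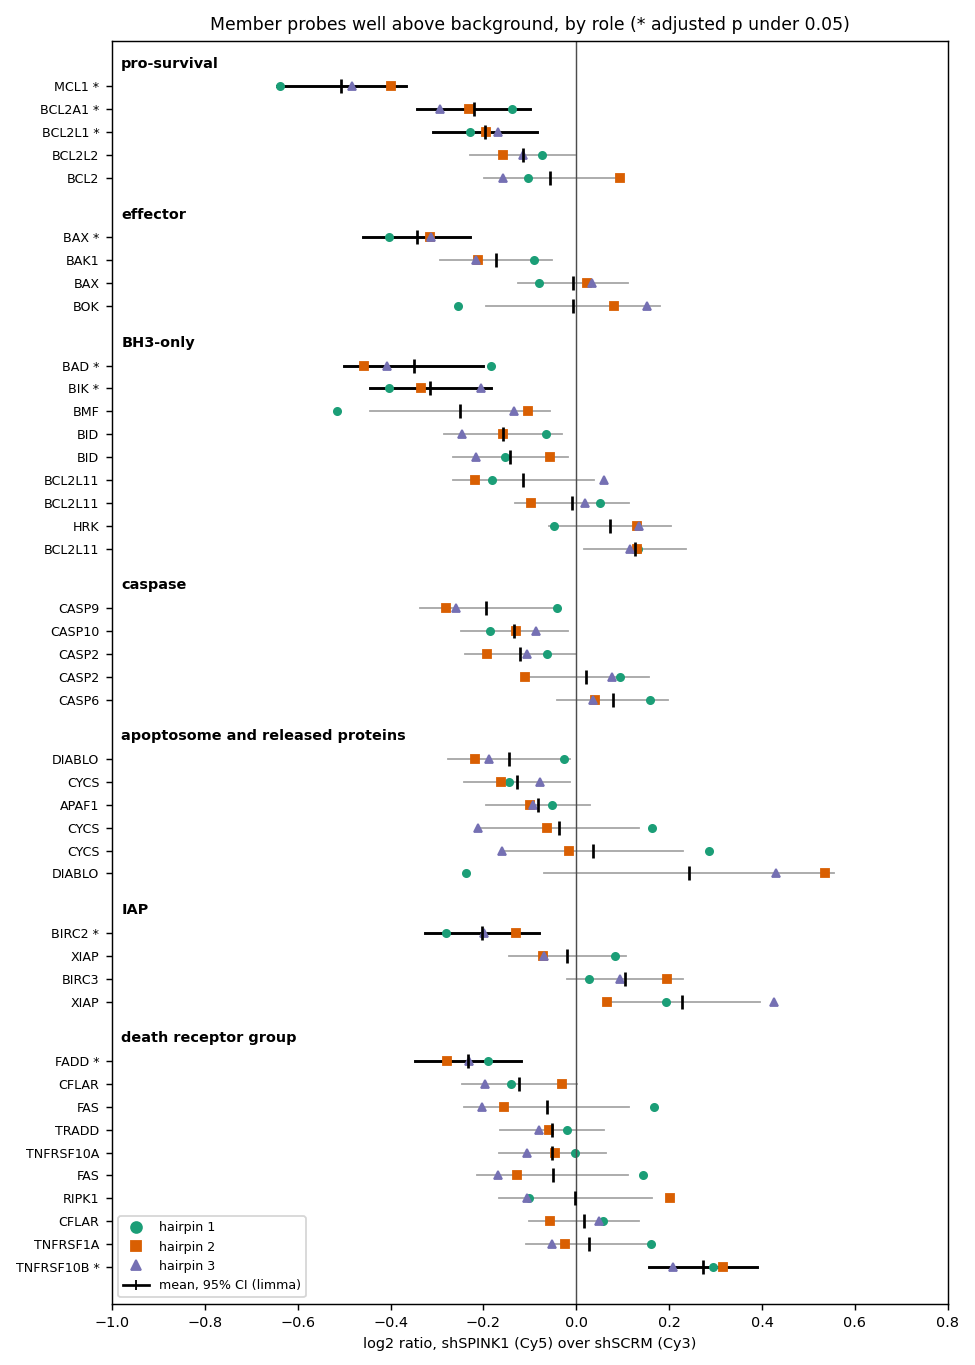
Log2 ratio of shSPINK1 (Cy5) over shSCRM (Cy3) cells for each of the 43 kept member probes, grouped by role, with 1 symbol per hairpin, the mean as a tick and the 95% confidence interval by limma as a line (black where the adjusted p was under 0.05). MCL1 lies furthest to the left at a mean of -0.51 and TNFRSF10B furthest to the right at 0.27; the probes of BOK and FAS, 2 of CYCS and 1 of DIABLO spread across 0 between hairpins. With centring on the median of all gene spots TNFRSF10B lies at -0.08.

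**Figure D2:**
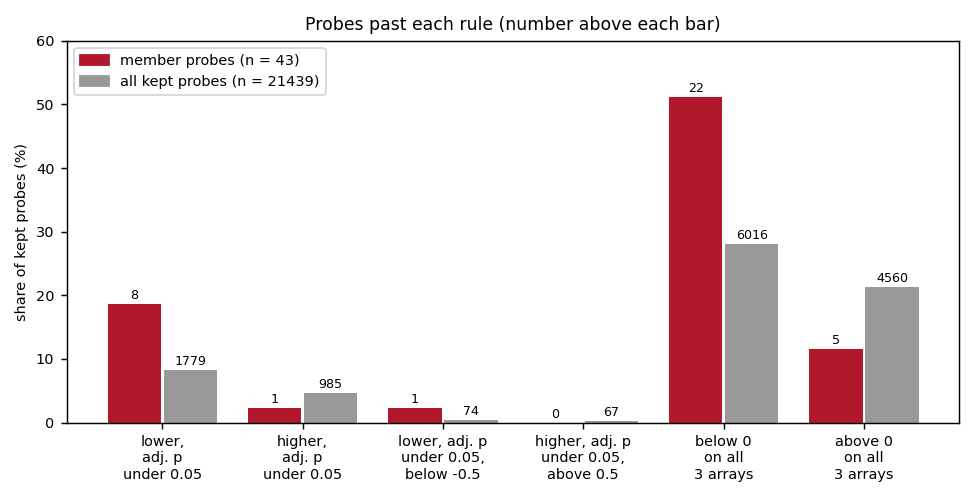
Share of kept probes past each rule, for the 43 member probes (red) and all 21439 kept probes (grey), with the number of probes above each bar. The member share is above that of all probes for both lower rules and for ratios below 0 on all 3 arrays (51.2% against 28.1%), and below it for the other 3.

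Among the pro-survival members, 5 probes of 5 genes were kept, 3 fell and 4 lay below 0 on all 3 arrays, with a median log2 ratio of -0.20. The counts by role here and below stand against 8.3% lower, 4.59% higher and 28.1% below 0 on all 3 arrays over all kept probes. MCL1, a short-lived protein that holds BH3-only proteins and BAK1, had log2 ratios of -0.64, -0.40 and -0.48 with hairpins 1, 2 and 3. Its raw brightness was 269, 306 and 261 in the shSPINK1 channel and 591, 607 and 569 in the shSCRM channel, before the dyes were put on 1 scale. The mean of -0.51 ± 0.12 (SD, n = 3 arrays, standard error 0.06, adjusted p = 0.00593 by limma) is a linear ratio of 0.704. All 3 arrays were low, that of hairpin 1 the most. It was called lower without any 1 of the arrays, with adjusted p values of 0.000484, 0.0123 and 0.0461 without hairpins 1, 2 and 3, and without hairpin 1 its mean was -0.44, short of the 0.5 limit. Over 15 other settings its mean lay between -0.85 and -0.44, it was called lower in 12, and its adjusted p reached 0.238.

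BCL2L1, which gives rise to BCL-XL, had log2 ratios of -0.23, -0.19 and -0.17, the narrowest spread of the lower calls (mean -0.20 ± 0.03, SD, n = 3 arrays, adjusted p = 0.0378 by limma). The probe was dim, with a brightness of 40.4, 34.8 and 32.6 in Cy5, and its mean was -0.52 with the Feature Extraction log ratio, made without the offset of 50 used here, against -0.11 with centring on the kept probes. Its call was lost without any 1 of the arrays, at adjusted p values between 0.0552 and 0.149. BCL2A1 had log2 ratios of -0.14, -0.23 and -0.29 (mean -0.22 ± 0.08, SD, n = 3 arrays, adjusted p = 0.0351 by limma), lowest with hairpin 3. This value rests on the probe for which a span of 33 bases is annotated; the other BCL2A1 probe was not well above background in either channel on any array. Without hairpins 2 and 3 its adjusted p was 0.124 and 0.203.

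The remaining pair did not pass the test. BCL2L2 (BCL-W) had a mean of -0.12 (adjusted p = 0.167) and was below 0 on all 3 arrays. BCL2, the founding member, had log2 ratios of -0.10, 0.09 and -0.16, so the arrays lay on both sides of 0 around a mean of -0.06 ± 0.13 (SD, n = 3 arrays, adjusted p = 0.603).

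Effector genes gave 4 kept probes of 3 genes, of which 1 fell. The first BAX probe was printed 10 times on each array, and its average over these spots was -0.40, -0.32 and -0.31 with hairpins 1, 2 and 3. The 10 spots had an SD of 0.034, 0.025 and 0.046 within the arrays, and each single spot was below 0, between -0.46 and -0.26. The mean of -0.34 ± 0.05 (SD, n = 3 arrays, adjusted p = 0.00839 by limma) is a linear ratio of 0.788. The second BAX probe, 1 spot per array and dim at a Cy5 brightness of 32.6 to 37.4, had log2 ratios of -0.08, 0.02 and 0.03 (mean -0.01 ± 0.06, SD, n = 3 arrays, adjusted p = 0.94). The first probe minus the second gave differences of -0.32, -0.34 and -0.35 on the log2 scale on the 3 arrays. With the Feature Extraction log ratio, made without the offset, the first probe had -0.39, -0.29 and -0.29. The second then had -0.30, 0.16 and 0.12, so the gap was narrow with hairpin 1 and not steady across arrays. Whether the gap comes from the stretch read or from the dim signal of the second probe was not tested. Averaged over both probes, BAX was not called. Without hairpin 3 the first probe had an adjusted p of 0.0547.

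BAK1, the other pore-forming effector, had a mean of -0.17 (adjusted p = 0.0682) and was below 0 on all 3 arrays. BOK, a related effector with less defined control, had log2 ratios of -0.25, 0.08 and 0.15, low with hairpin 1 and above 0 with the others (mean -0.01 ± 0.22, SD, n = 3 arrays, adjusted p = 0.965).

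BH3-only genes, the sensors of the mitochondrial route, had 9 kept probes of 6 genes, of which 2 fell and 0 rose by limma (unadjusted p was under 0.05 for 1 higher probe, of BCL2L11), around a median of -0.14. BAD, which binds BCL-XL and is controlled by survival kinases, had log2 ratios of -0.18, -0.46 and -0.41 (mean -0.35 ± 0.15, SD, n = 3 arrays, adjusted p = 0.0166 by limma), with hairpin 1 nearest to 0. BIK, an endoplasmic reticulum BH3-only protein, had log2 ratios of -0.40, -0.33 and -0.21 (mean -0.31 ± 0.10, SD, n = 3 arrays, adjusted p = 0.0153 by limma), with hairpin 1 furthest from 0. Both kept a call without hairpin 1 and lost it without hairpin 2 (0.0641 and 0.0561) and without hairpin 3 (0.0994 and 0.0518).

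BMF, which is held at the cytoskeleton in resting cells, was low mainly on 1 array. Its log2 ratios were -0.51, -0.10 and -0.14, and the mean of -0.25 had an adjusted p of 0.0909. BID, the link from the receptor route to mitochondria, had probe means of -0.16 and -0.14 (adjusted p = 0.102 and 0.125), and both probes were below 0 on all 3 arrays. The 3 probes of BCL2L11 (BIM) differed in sign. The highest had log2 ratios of 0.13, 0.13 and 0.12 (mean 0.13 ± 0.01, SD, n = 3 arrays, adjusted p = 0.126). This probe was dim, at a Cy5 brightness of 29.1 to 35.1, and its mean was 0.54 with the Feature Extraction log ratio. The lowest had -0.18, -0.22 and 0.06 (mean -0.11 ± 0.15, SD, n = 3 arrays, adjusted p = 0.297). HRK was dim and had a mean of 0.07 (adjusted p = 0.448).

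No caspase probe was called by limma, although 3 of the 5 kept probes had an unadjusted p under 0.05. CASP9, the initiator of the mitochondrial route, was the lowest, with log2 ratios of -0.04, -0.28 and -0.26 (mean -0.19 ± 0.13, SD, n = 3 arrays, adjusted p = 0.0808), near 0 with hairpin 1 and lower with hairpins 2 and 3. CASP6, an executioner, was the highest, with log2 ratios of 0.16, 0.04 and 0.04 (mean 0.08 ± 0.07, SD, n = 3 arrays, adjusted p = 0.364), and was above 0 on all 3 arrays but had a mean of -0.26 with centring on the median of all gene spots. CASP10, a receptor-route initiator, had a mean of -0.13 by its only kept probe of 4 (adjusted p = 0.121). The probes of CASP2 had means of -0.12 and 0.02 (adjusted p = 0.168 and 0.86).

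APAF1, CYCS and DIABLO had 6 kept probes, none of them called by limma, and 2 of them with an unadjusted p under 0.05. APAF1, the scaffold of the apoptosome, had a mean of -0.08 (adjusted p = 0.304), from a dim probe well above background in Cy5 on 2 arrays only. Its mean was -0.55 with the Feature Extraction log ratio (adjusted p = 0.132 by limma). For CYCS, 2 of 3 probes had log2 ratios of 0.29, -0.02 and -0.16 and of 0.16, -0.06 and -0.21, highest with hairpin 1 and lowest with hairpin 3 in both. The remaining CYCS probe was below 0 on all 3 arrays, with a mean of -0.13 (adjusted p = 0.132). CYCS has processed pseudogenes of close sequence, so its probes may read more than 1 locus.

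DIABLO, which releases caspases from IAPs, gave the widest gap between probes of a gene. The probe nearer the 3′ end had log2 ratios of -0.03, -0.22 and -0.19 (mean -0.14 ± 0.10, SD, n = 3 arrays, adjusted p = 0.14). The other had -0.24, 0.53 and 0.43 (mean 0.24 ± 0.42, SD, n = 3 arrays, adjusted p = 0.282), below 0 with hairpin 1 and far above 0 with hairpins 2 and 3, the reverse of the order of the first. The second probe was the most GC-rich of the kept member probes, at 76.7%, a share reached by 0.429% of all kept probes, whose median was 43.3%. The first 30 bases of both are shown for that contrast.
DIABLO, 3′ probe: tttttgtcatgcccttaagttcagcaactg
DIABLO, GC-rich probe: ctggcccgaactgagtccccgcccacccgc
They lie at chr12:122692558-122692617 and chr12:122710823-122710882, both on the minus strand.

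IAP genes had 4 kept probes of 3 genes, of which 1 fell. BIRC2 (cIAP1), a ubiquitin ligase that acts on RIPK1, had log2 ratios of -0.28, -0.13 and -0.20 (mean -0.20 ± 0.08, SD, n = 3 arrays, adjusted p = 0.0445 by limma). All 3 arrays were below 0, but the call was lost without any 1 of them, at adjusted p values between 0.0829 and 0.181. BIRC3 (cIAP2) had a mean of 0.10 (adjusted p = 0.246), above 0 on all 3 arrays, from a probe that was well above background in the shSCRM channel on 1 array only. XIAP, which binds caspases directly, had 1 probe with log2 ratios of 0.19, 0.07 and 0.43 (mean 0.23 ± 0.18, SD, n = 3 arrays, adjusted p = 0.0806), highest with hairpin 3, and a dimmer probe with 0.08, -0.07 and -0.07 (adjusted p = 0.852).

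In the death receptor group, 10 probes of 8 genes were kept, and 1 rose and 1 fell. TNFRSF10B, the TRAIL receptor DR5, had log2 ratios of 0.29, 0.32 and 0.21, the only member called higher and close on all 3 arrays (mean 0.27 ± 0.06, SD, n = 3 arrays, adjusted p = 0.0168 by limma), a linear ratio of 1.21. Its mean was 0.32 with the Feature Extraction log ratio, 0.13 with centring on the kept probes and -0.08 with centring on the median of all gene spots. In that last setting the median over all kept probes was -0.21, so TNFRSF10B stood 0.13 above it. Without hairpins 2 and 3 its adjusted p was 0.0746 and 0.0703. TNFRSF10A, the related receptor DR4, had a mean of -0.05 (adjusted p = 0.545).

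FADD, the adaptor shared by FAS and the TRAIL receptors, had log2 ratios of -0.19, -0.28 and -0.23 (mean -0.23 ± 0.04, SD, n = 3 arrays, adjusted p = 0.0241 by limma), below 0 and close on all 3 arrays. Its call was lost without hairpin 2 (0.113) and without hairpin 3 (0.125). The means of TRADD and RIPK1, adaptor and kinase of the TNF receptor complex, were -0.05 and 0.00 (adjusted p = 0.517 and 0.988). TNFRSF1A, the receptor itself, had log2 ratios of 0.16, -0.02 and -0.05, high with hairpin 1 and near 0 with the others. The probes of CFLAR had means of 0.02 and -0.12 (adjusted p = 0.87 and 0.179), and no transcript is listed for both.

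FAS, the receptor of the FAS ligand, had log2 ratios on both sides of 0. With 1 array per hairpin, a difference between hairpins and the noise of an array cannot be told apart. One probe had log2 ratios of 0.14, -0.13 and -0.17 and the other 0.17, -0.16 and -0.20, above 0 with hairpin 1 and below 0 with hairpins 2 and 3, and neither mean passed the test (adjusted p = 0.683 and 0.633). These probes are not independent readings, since they share 32 of their 60 bases. A stretch across the edge of the overlap is shown for each, with bases that lie within the overlap in capitals.
FAS, upstream probe, bases 21 to 50: tagtacaaATGTCTATCCACAGGCTAACCC
FAS, downstream probe, bases 11 to 40: ACAGGCTAACCCCACTCTATGAatcaatag
The upstream probe lies at chr10:90774517-90774576 and the downstream probe at chr10:90774545-90774604, both on the plus strand. The upstream probe was dim, at a Cy5 brightness of 31.8 to 48.9, and the remaining FAS probe was not well above background on any array.

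Of the 32 measured genes, 9 had more than 1 kept probe. The means of the probes of a gene differed by 0.01 for FAS, and the first minus the second was -0.02 for BID, -0.34 for BAX and -0.39 for DIABLO. For BAX all 3 arrays showed the gap in the same direction, whereas for DIABLO the first probe was above the second by 0.21 with hairpin 1 and not above it with hairpins 2 and 3, where the differences were -0.75 and -0.62.

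**Figure D3:**
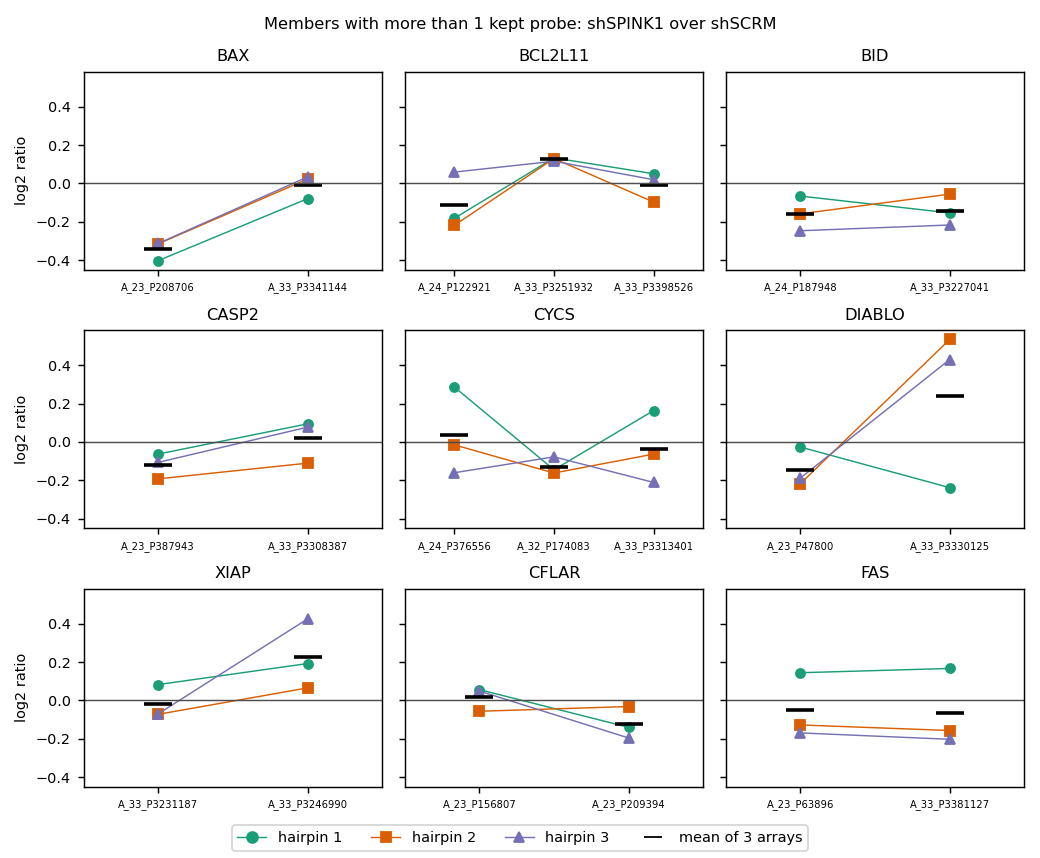
Log2 ratio of shSPINK1 over shSCRM cells for the 9 members with more than 1 kept probe, with 1 line per hairpin joining the probes of a gene and the mean of 3 arrays as a bar. The lines of BAX run in parallel from about -0.34 to -0.01 in the mean, those of DIABLO cross, and those of FAS, whose probes share bases, are flat. With the Feature Extraction log ratio, not drawn, the BAX values do not run in parallel.

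Other genes of the pathway were read from a list of 54 genes that are not members, of which 34 had a kept probe. Of their 44 kept probes, 9 were lower and 4 higher at an adjusted p under 0.05 by limma, around a median log2 ratio of -0.05. These were 20.5% and 9.09% of the list, against 8.3% and 4.59% of all kept probes. The 14 kept probes for death receptors and adaptors held 6 of the 9 lower calls, from 5 genes. The only probe beyond 0.5 was of BNIP3L, a BH3-like protein of mitophagy, with log2 ratios of -1.37, -0.54 and -0.32 (mean -0.75 ± 0.56, SD, n = 3 arrays, adjusted p = 0.0327 by limma). Another BNIP3L probe was lower (mean -0.25, adjusted p = 0.0477) and the last of the 3 was higher (0.19, adjusted p = 0.0387), so the probes of this gene differed in sign. Named after its value was seen, PMAIP1 (NOXA), a BH3-only protein, was the highest called probe of the list, with log2 ratios of 0.31, 0.29 and 0.36 (mean 0.32 ± 0.04, SD, n = 3 arrays, adjusted p = 0.00981 by limma). Some probes called lower lay further from 0 than PMAIP1, among them both of PEA15 (-0.34 and -0.41), TNFRSF10D (-0.37) and TNFRSF12A (-0.33).

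The calls depended on the source of the ratios and on the number of arrays. With the log ratios that Feature Extraction had computed, or with the deposited table, 0 member probes were called in either direction by limma, while 9 had an unadjusted p under 0.05 with the former. Of all probes or genes tested, 3 were called lower and 0 higher with either source, so a count of 0 members is not a result about them. All 9 called probes kept their sign with the Feature Extraction log ratios. Without hairpin 1, 2 or 3 the lower calls numbered 10, 2 and 1 (23.3%, 4.65% and 2.33%, against 11.2%, 2.85% and 1.26% of all kept probes) and the higher calls 3, 0 and 0 (6.98%, 0% and 0%, against 7.25%, 2.11% and 0.826%). The number of member calls thus rose and fell with that of the whole array. MCL1 was lower in each of these, and BAX without hairpin 1 or 2.

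**Figure D4:**
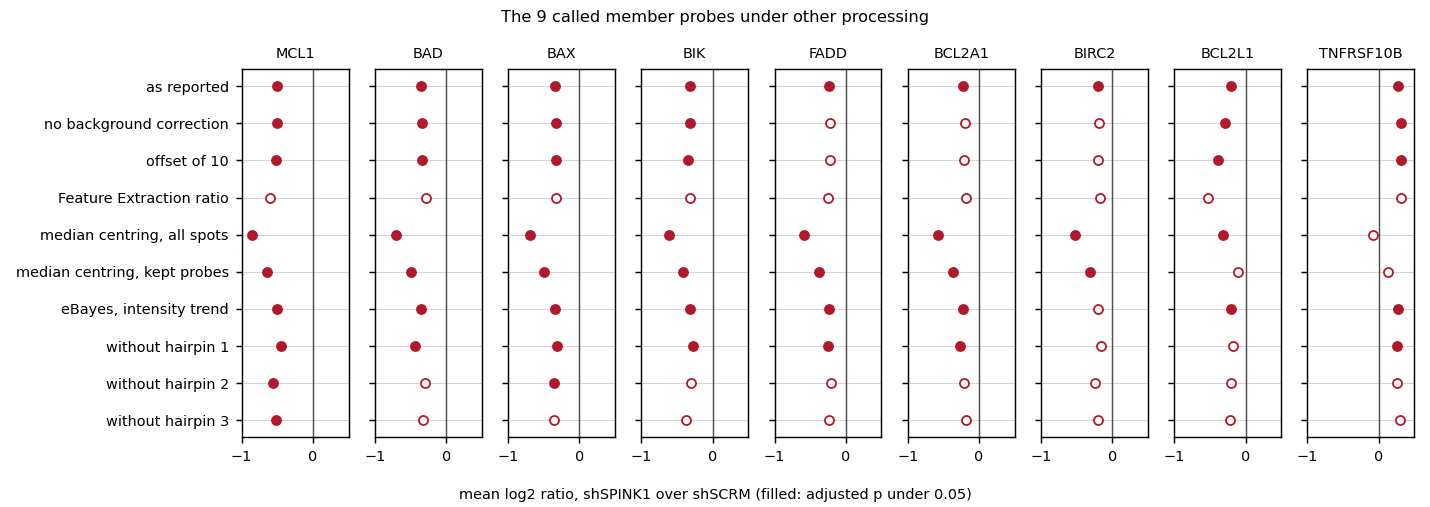
Mean log2 ratio of the 9 called member probes under 10 settings of the processing (lines), with filled circles where the adjusted p by limma was under 0.05. The 8 lower probes stay left of 0 in each setting drawn, MCL1 is open only for the Feature Extraction ratio, and TNFRSF10B moves to -0.08 with median centring on all spots.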

How the data were processed

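Total RNA of 22RV1-shSPINK1 (Cy5) and 22RV1-shSCRM (Cy3) cells had been given poly(A) tails, labelled and hybridized on 3 two-color Agilent 8x60k arrays, 1 per hairpin. The authors deposited the scanner output of Feature Extraction 11.5.1.1, in which intensity is given per spot without normalization, and a log10 ratio per spot (Cy5 over Cy3) after background and dye correction. A deposited table from the authors gives log2 values per gene name. For genes with 1 probe, above background in both channels, at least 99.9% of its values were within 0.02 of the Feature Extraction log2 ratio, so its scale and direction were settled. The stated methods name Lowess and a false discovery rate of 0.05.

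The intensity values were processed with limma 3.58.1 under R 4.3.3. Background was corrected with normexp (offset 50) over all spots, control spots and outlier flags (0.203% of values) were set aside, loess was run within arrays and the spots of a probe were averaged. The offset draws ratios of dim probes toward 0. Probes well above background in a channel on all 3 arrays were kept, and the mean log2 ratio was tested against 0 with Benjamini-Hochberg adjustment over all kept probes. Each probe was treated on its own and gene names are those of the array, all 34 of which matched RefSeq symbols (GRCh38.p14, names only). The p-values rest only on the spread between these 3 arrays, which limma moderated for each probe with that of all kept probes. The number of arrays limits the precision.

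Values per array were given for called member probes and for the lowest and highest probe of each role. Alternatives covered background, normalization, source of ratios, filter, probe rule, test, threshold and leaving out arrays; centring on the kept probes was added after the values were seen. The members and lists were chosen with earlier results of these data known. Exact zeros made up 23.1%, 35.7% and 37.4% of the Feature Extraction log ratios. A few apoptosis genes are not analysed here.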

Additional observations from a re-analysis of the deposited data

How the results depend on the processing

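The calls rested on the 3 arrays and on the scale. As reported there were 8 lower and 1 higher member probes and a median of -0.06. Omitting the background correction gave 5 lower (11.6%, against 6.01% of all kept probes). An offset of 10 gave 5 lower (11.6%, against 5.19%) and 2 higher (4.65%, against 3.53%), with a median of -0.10. An intensity trend in eBayes gave 2 higher (4.65%, against 4.82%). Feature Extraction log ratios gave 0 lower, 0 higher and 0 called beyond -0.5 (median -0.104). The deposited table gave the same 0, 0 and 0 (median -0.0867), with 14 members below and 2 above 0 on all 3 arrays. The ordinary one-sample test gave 0 lower, 0 higher and 0 called beyond -0.5, with 13 at an unadjusted p under 0.05. It called 0 of all kept probes too, so its count of 0 is not a result about the members. SPINK1, at -3.75, then had an adjusted p of 0.15. Median centring on all gene spots gave 31 lower, 0 higher and 8 called beyond -0.5 (median -0.333, and -0.21 over all kept probes). This centring left 2 members above 0 on all 3 arrays. It turned the sign of CASP6 (-0.26), CYCS by its probe of mean 0.04 (-0.31), CFLAR by its probe of mean 0.02 (-0.22), TNFRSF10B (-0.082) and TNFRSF1A (-0.26). The brighter XIAP probe (-0.12), the GC-rich DIABLO probe (-0.08) and the CASP2 probe of mean 0.02 (-0.07) also turned to below 0. Centring on the kept probes gave 19 lower, 4 higher and 10 above 0 on all 3 arrays (median -0.125) and turned the dimmer XIAP probe to 0.18 (adjusted p = 0.0322, over all settings of this probe between 0.0321 and 0.983). Without the filter on dim probes 8 members were above 0 on all 3 arrays, and with the mean of each gene's probes 3. The median was -0.114 for probes above background in both channels and -0.098 for the brightest probe of each gene. Without 1 array, the lower calls ranged from 1 to 10, the higher calls from 0 to 3, those beyond -0.5 from 0 to 1, members above 0 from 5 to 9 and the median from -0.108 to -0.0731. The lowest and highest counts of lower calls came without replicates 3 and 1. In this section no share over all kept probes is given for calls beyond -0.5 or for signs on all 3 arrays. Such counts are therefore not a result about the members. No paired analysis was possible because each array is a ratio of its own and they form 1 group. A slide or scan block was not run, because all arrays were assumed to lie on 1 slide. Causes were not tested. Members near background, CASP8 and TNFSF10 among them, are limited by their signal.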
